A study of Mus musculus with 9 samples.

Results

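The lipogenic genes Fasn, Thrsp, Srebf1 and Acacb were compared in adult liver between mice lacking the type 2 deiodinase in hepatocytes and their controls. The genes were taken by name from the deposited table of genes that differed between genotypes, and 4 of 4 were found among its 1525 genes. The table holds genes that passed the authors' thresholds of a 1.2-fold change and an unadjusted p-value of 0.05, so the members were selected on the difference between genotype means in this same contrast, and their ratios are given as a description without a test. For scale, 7.06% of the 15627 genes with a gene ontology annotation were listed. Alb-D2KO mice carried a floxed Dio2 allele and Cre recombinase driven by the albumin promoter, which acts in hepatocytes. Control mice carried the Cre transgene, so Cre was shared by both groups. The study describes the controls as littermates, but the sample labels name no litter. All animals were adults of the strain labelled C57BL/6 (C57BL/6J in the study's methods), kept on chow, and whole liver was sequenced from 5 control and 4 Alb-D2KO mice. Dio2 is expressed in liver around birth and silent in the adult, and it was not among the listed genes, so the genotype labels were not checked against its level here.

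The liver turns surplus carbohydrate into fat by de novo lipogenesis. Acetyl-CoA is carboxylated to malonyl-CoA by acetyl-CoA carboxylase, and fatty acid synthase builds palmitate from it. Transcription of these enzymes is driven by insulin through SREBP-1c, by glucose through ChREBP, and by the thyroid hormone T3, the product of the type 2 deiodinase. Fasn encodes fatty acid synthase. Thrsp encodes Spot 14, a small protein first known as a T3-responsive product of liver. Srebf1 encodes the SREBP-1 transcription factors. Acacb encodes acetyl-CoA carboxylase 2, which sits on the outer mitochondrial membrane, where its malonyl-CoA restrains entry of fatty acids into oxidation.

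Promoter windows of the 4 genes are shown as background on the sequence next to their start sites. RefSeq sequences of the mm10 assembly (GRCm38.p6) run from 250 bases before to 50 bases after each start site, 5′ to 3′ on the strand of the gene. Capitals mark CCAAT (bound by NF-Y), GGGCGG (bound by Sp1) and TCACCC (the core of sterol regulatory elements) on either strand.
Fasn, chr11:120824498-120824797, minus strand: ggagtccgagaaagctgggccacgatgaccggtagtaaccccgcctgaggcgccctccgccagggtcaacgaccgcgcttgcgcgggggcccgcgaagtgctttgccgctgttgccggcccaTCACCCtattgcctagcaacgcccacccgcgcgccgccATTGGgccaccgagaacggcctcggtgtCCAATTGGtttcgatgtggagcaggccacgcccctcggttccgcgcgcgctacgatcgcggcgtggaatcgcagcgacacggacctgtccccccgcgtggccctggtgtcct
Thrsp, chr7:97417501-97417800, minus strand: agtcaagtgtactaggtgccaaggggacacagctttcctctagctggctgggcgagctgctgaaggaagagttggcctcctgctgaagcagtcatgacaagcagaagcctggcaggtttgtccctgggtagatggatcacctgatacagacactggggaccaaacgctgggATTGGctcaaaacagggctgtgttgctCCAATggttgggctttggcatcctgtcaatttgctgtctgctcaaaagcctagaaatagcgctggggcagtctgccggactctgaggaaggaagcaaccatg
Srebf1, chr11:60210422-60210721, minus strand: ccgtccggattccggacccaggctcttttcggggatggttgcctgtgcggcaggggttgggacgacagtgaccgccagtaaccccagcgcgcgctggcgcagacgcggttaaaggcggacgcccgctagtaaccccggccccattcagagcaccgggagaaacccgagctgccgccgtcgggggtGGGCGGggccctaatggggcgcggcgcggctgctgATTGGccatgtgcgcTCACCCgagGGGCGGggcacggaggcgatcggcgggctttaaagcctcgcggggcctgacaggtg
Acacb, chr5:114165268-114165567, plus strand: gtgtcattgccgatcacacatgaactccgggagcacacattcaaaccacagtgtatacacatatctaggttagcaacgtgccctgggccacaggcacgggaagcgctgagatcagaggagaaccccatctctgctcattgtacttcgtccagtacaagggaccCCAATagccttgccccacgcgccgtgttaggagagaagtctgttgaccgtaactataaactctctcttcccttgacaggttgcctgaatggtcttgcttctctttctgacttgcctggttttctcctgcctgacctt
RefSeq gives 3 start sites for Srebf1. The window printed is the one farthest downstream, where transcription of the SREBP-1c form begins. The Acacb window is that of the start at 114165518. In GENCODE the longest Acacb transcript starts upstream of it, at 114146535, and the sequence there is not shown.

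CCAAT was found in each of the printed windows. With the start site counted as position 0, Fasn had matches from -90, -62 and -59, and Thrsp had matches from -79 and -52. The Fasn matches from -62 and -59 lie on opposite strands and overlap, so they are not separate stretches of sequence. The Srebf1 window had CCAAT from -30, and the Acacb window had it from -87. CCAAT occurred in 37.4% of 32851 promoter windows of this length, so its presence is common. TCACCC was found from -128 in Fasn and from -15 in Srebf1, against 16.2% of all windows. It had 0 matches in the Thrsp and Acacb windows. GGGCGG, present in 35.7% of all windows, was found from -65 and from -6 in the printed Srebf1 window. The Acacb window alone among these held TATAAA, from -34, and AGGTCA, the nuclear receptor half-site, from 43 on the strand opposite to the gene. TATAAA and AGGTCA occurred in 13.6% and 16.3% of all windows. The E-box CACGTG, present in 7.15% of all windows, had 0 matches. Of the other Srebf1 windows, the farthest upstream held 1 CCAAT match and the middle held 3 GGGCGG matches. These matches describe letters in a window and do not show binding. Sequence outside the windows was not searched, so a motif with 0 matches here may lie farther from the gene's start.

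**Figure D1:**
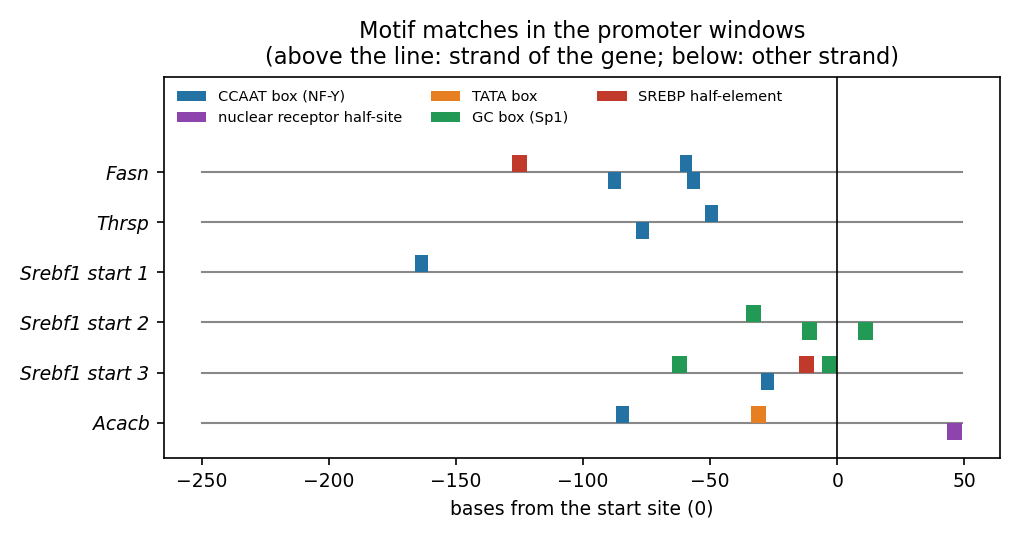
Positions of motif matches in the promoter windows of Fasn, Thrsp, Srebf1 (3 start sites, numbered from upstream to downstream) and Acacb. The x axis gives bases from the start site at 0, coloured boxes are matches, and boxes above or below a line lie on the strand of the gene or the other strand; CCAAT matches appear in 5 of the 6 windows.

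The deposited gene means were not scaled for the depth of the libraries, so depth was compared first. Sequencing gave between 40234632 and 54504351 reads per liver. For Alb-D2KO the mean number of gene-assigned reads was 31223823 ± 3447611 (SD, n = 4), compared with 33491489 ± 3199891 (SD, n = 5) for control. This log2 difference of -0.10 did not exceed the variation among libraries (p = 0.302 in a two-sided exact permutation test, and 0.302 with Benjamini-Hochberg adjustment for 6 library measures). Intronic reads made up 18.6% ± 1.84 (SD, n = 4) of the Alb-D2KO reads and 20.5% ± 1.95 (SD, n = 5) of the control reads, with an exact permutation p of 0.190 (two-sided). A gene expressed at the same share of each library would therefore have an Alb-D2KO to control ratio of about 0.932 by assigned reads. Gene counts of individual mice were not analysed here, so no SD over animals is given for a gene, and whether the animals of the genotypes overlapped is not known. Intervals on gene ratios cover counting error only, and the spread between animals comes on top of them.

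Fasn had a mean of 30250 estimated counts per library in control and 47150 in Alb-D2KO liver. The Alb-D2KO mean was 1.56 times the control mean (95% interval from counting 1.55 to 1.57). Its summed count of 339851 ranked 6 among the 1525 listed genes. Fasn lies on chromosome 11, 120805846 to 120824547 (mm10, minus strand; ENSMUSG00000025153.9). None of its exonic bases overlapped an exon of another annotated gene, and 0% of its 31-base words occurred in transcripts of other genes.

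Thrsp had a mean of 11167 estimated counts in control and 18105 in Alb-D2KO liver. This was the largest ratio of the 4, at 1.62 (95% interval from counting 1.60 to 1.64). Spot 14 is a small protein with no known catalytic activity that acts in fatty acid synthesis. Thrsp lies on chromosome 7, 97412938 to 97417730 (mm10, minus strand; ENSMUSG00000035686.8), and 0.561% of its words were shared with other genes.

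Srebf1 had a mean of 11784 estimated counts in control and 16765 in Alb-D2KO liver. Its ratio was 1.42 (95% interval from counting 1.41 to 1.44). The count is per gene and does not separate the SREBP-1a and SREBP-1c forms. Srebf1 lies on chromosome 11, 60199089 to 60222581 (mm10, minus strand; ENSMUSG00000020538.15). It shared 109 exonic bases with Rai1 on the opposite strand, 66 with the microRNA gene Mir6922 on the same strand, and 2.01% of its words with other genes. Strand was not stated for the authors' counting, so reads in these stretches cannot be assigned with certainty.

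Acacb went the other way. Its mean was 4238 estimated counts in control and 3158 in Alb-D2KO liver, a ratio of 0.745 (95% interval from counting 0.729 to 0.762), or 1.34-fold lower. Acacb lies on chromosome 5, 114146535 to 114250761 (mm10, plus strand; ENSMUSG00000042010.16). Its exons shared no bases with exons of another annotated gene, and 0% of its words were shared.

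**Figure D2:**
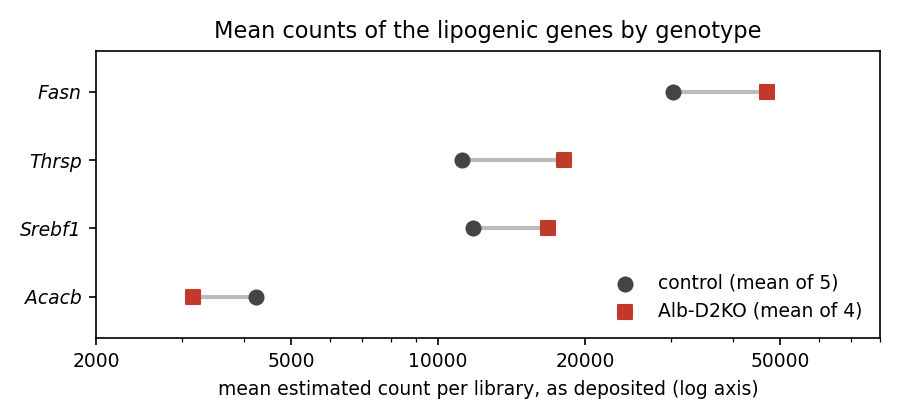
Mean estimated counts of Fasn, Thrsp, Srebf1 and Acacb per library as deposited, on a log axis, with circles for control (mean of 5) and squares for Alb-D2KO (mean of 4). The squares lie to the right of the circles for Fasn, Thrsp and Srebf1 and to the left for Acacb; no error over animals is drawn because gene counts of individual mice were not analysed.

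The direction of the 3 higher genes was the minority direction of the table. Of all listed genes, 10.6% (162 of 1525) had the higher mean in Alb-D2KO liver and 89.4% the lower. The median log2 ratio over all listed genes was -0.54, while Thrsp, Fasn and Srebf1 stood at 0.70, 0.64 and 0.51 and Acacb at -0.42. Since this contrast chose the genes, nothing is read from that count.

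By level the 3 higher genes stood near the top of the table. The count summed over libraries reached 100000 or more in 19 listed genes. Of these, 6 (31.6%) were higher in Alb-D2KO liver, against 10.6% of all listed genes. The 6 were Fasn, Thrsp, Srebf1, Tat, Serpina1e and Saa4. Because Fasn, Thrsp and Srebf1 are members chosen with this contrast in view, nothing is read from that share. Tat, tyrosine aminotransferase, had means of 28854 in control and 41647 in Alb-D2KO liver. Serpina1e, a secreted protease inhibitor made by hepatocytes, had 299885 and 433753. Saa4, a serum amyloid A apolipoprotein, had 9073 and 13698. The other 13 genes of this level were lower in Alb-D2KO liver. Among them was Cyp2e1, a cytochrome P450, with 133437 in control and 95406 in Alb-D2KO. Acsl1, which activates fatty acids to acyl-CoA, had 39806 and 28753.

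**Figure D3:**
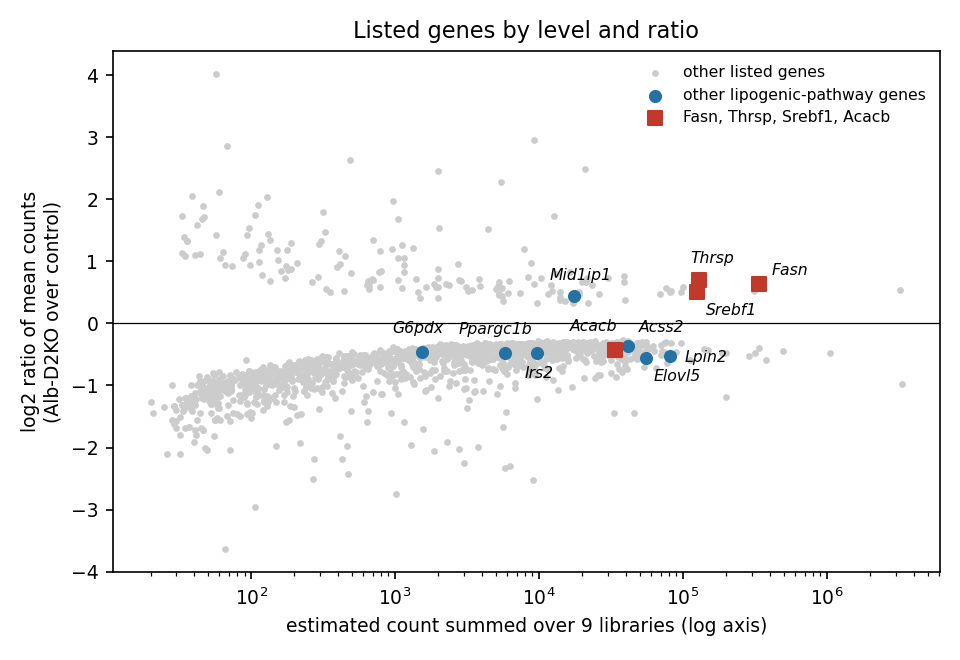
Each point is 1 of the 1525 listed genes, with its count summed over 9 libraries on the x axis (log) and the log2 ratio of the genotype means on the y axis. Red squares mark Fasn, Thrsp, Srebf1 and Acacb and blue circles the other 7 listed lipogenic-pathway genes. The band around 0 is blank because listed genes passed thresholds of fold and of p-value. The smallest listed fold was 1.25 among higher genes and 1.21 among lower genes.

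To compare genes of like level, the ratios were also placed among the 328 listed genes whose summed count reached 10000 or more. The median ratio was 1.44 over the 37 higher genes of this level and 0.755 over the 291 lower genes. Thrsp ranked 9 and Fasn 13 by ratio among the 37, and Srebf1 ranked 23. Acacb ranked 121 among the 291 lower genes. The genes of this level with the log2 ratio nearest to Fasn were Tuba1c (1.54), Fgl1 (1.58) and Sik1 (1.54). For Thrsp they were Bag3 (1.59), C4a (1.59) and Col27a1 (1.66). For Srebf1 they were Lrg1 (1.42), Cyp2d40 (1.42) and Per2 (1.42), and for Acacb Gm22009, Dapk1 and Ctdsp2, each at 0.744. Likeness here rests on 2 genotype means.

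Per kilobase of exon, control liver had 5101 estimated counts for Thrsp, 2763 for Fasn, 2092 for Srebf1 and 440.0 for Acacb. In Alb-D2KO liver the levels per kilobase were 8271, 4307, 2976 and 327.9, in the same order. Thrsp thus had the most counts per length in both genotypes and Acacb the fewest. With no spread over animals, whether neighbours in this order differ was not tested. As a share of assigned reads, the control mean of Fasn corresponded to 903.2 CPM and the Alb-D2KO mean to 1510 CPM. For Acacb the shares were 126.5 and 101.2 CPM.

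Ratios between genes of the same libraries do not change when a library is scaled by a single factor common to its group, so they were computed inside each genotype. Fasn had 7.14 times the mean count of Acacb in control and 14.9 times in Alb-D2KO liver. The ratio of these ratios was 2.09 (95% interval from counting 2.04 to 2.14). The 3 higher genes stayed closer to each other. Fasn over Srebf1 was 2.57 in control and 2.81 in Alb-D2KO liver, a ratio of ratios of 1.10 (95% interval from counting 1.08 to 1.11). For Fasn over Thrsp the ratio of ratios was 0.961 (95% interval from counting 0.949 to 0.974). These ratios come from the means that selected the genes, and without the spread between animals whether the genes of a pair changed unequally was not tested.

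The gene ratios were then corrected for the relative depth of the genotypes, measured in 4 ways, of which the smallest correction was that of assigned reads and the largest that of the median gene. Fasn ran from 1.67 to 1.75, Thrsp from 1.74 to 1.82 and Srebf1 from 1.53 to 1.60. Because Alb-D2KO libraries had fewer reads on average, each division moved these 3 genes farther from 1. It moved Acacb toward 1, to 0.799 by assigned reads and 0.838 by the median gene. At the latter value Acacb was 1.19-fold lower, inside the 1.2-fold threshold of the table. Acacb was lower in each of these settings.

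**Figure D4:**
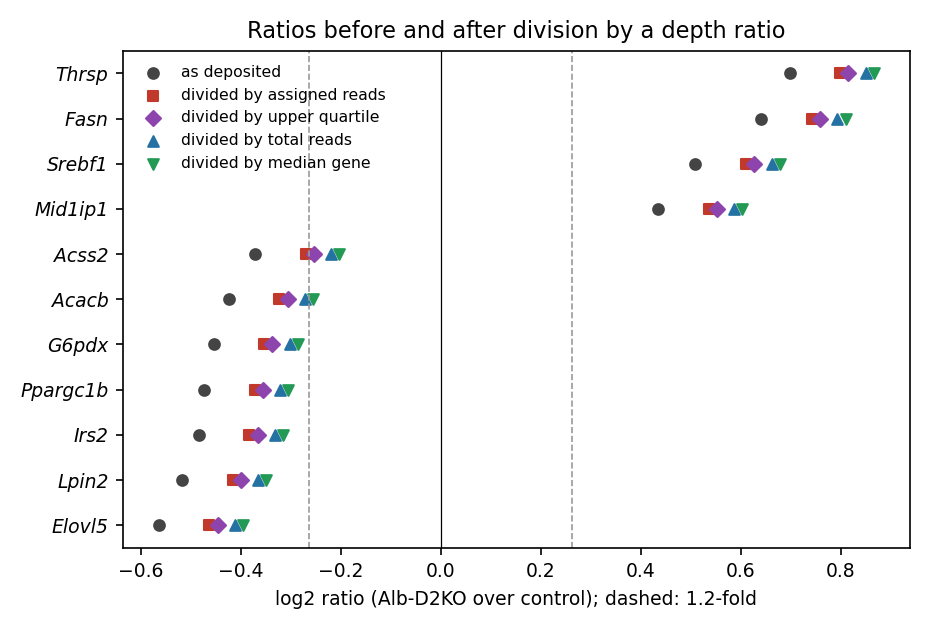
Log2 ratios of Alb-D2KO over control mean counts for the 11 listed lipogenic-pathway genes, as deposited and after division by the genotype ratio of assigned reads, upper quartile, total reads or median gene count. Dashed lines mark 1.2-fold; the 4 upper genes move away from 0 with each division and the 7 lower genes toward 0, with Acss2 and Acacb crossing the line.

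The rest of the pathway was read from 65 genes in 6 lists. Of these, 11 were listed (16.9%), 4 higher and 7 lower in Alb-D2KO liver, with Fasn, Thrsp, Srebf1 and Acacb included by selection. Without these 4 genes, 7 of 61 were listed (11.5%), against 7.06% of all genes with a gene ontology annotation. Of the 7, 1 was higher and 6 lower, which is 14.3% higher against 10.6% of all listed genes. The median log2 ratio of the 7 was -0.47, against -0.54 over all listed genes. The share of 7.06% also stands beside the counts of each list and marker list below.

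Of 9 genes of fatty acid synthesis, 5 were listed (55.6%), against 7.06% of annotated genes. Fasn, Thrsp and Acacb are among the 5 because they were taken from the listed genes, so nothing is read from this share. The others were Mid1ip1 and Acss2. Mid1ip1, which encodes the paralogue of Spot 14 that binds acetyl-CoA carboxylase and promotes its polymerisation, had means of 1687 in control and 2279 in Alb-D2KO liver, a ratio of 1.35 (95% interval from counting 1.31 to 1.39). It was the only one of the 7 with the direction of Thrsp. It shared 543 exonic bases with the antisense gene Gm14493, and 22.7% of its words with other genes, so its count is uncertain. Acss2, which makes acetyl-CoA from acetate, had 5126 and 3961, a ratio of 0.773. It shared 7.57% of its words, the most with Gss on the opposite strand. Acly, Slc25a1, Acaca and Me1 were not listed and have no value here. Acaca encodes acetyl-CoA carboxylase 1, the cytosolic counterpart of the Acacb product.

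Of 4 genes that supply NADPH for fatty acid synthesis, G6pdx was listed, with means of 193.8 in control and 141.5 in Alb-D2KO liver, a ratio of 0.730. It encodes glucose-6-phosphate dehydrogenase and shared 23.6% of its words with other genes, the most with G6pd2. Of 14 genes of elongation and desaturation, Elovl5 was listed, with means of 7147 and 4834 and a ratio of 0.676. Elovl5 lengthens polyunsaturated fatty acids. Scd1, Scd2, Elovl6, Fads1 and Fads2 were not listed. Of 13 genes of triglyceride assembly, Lpin2, a phosphatidate phosphatase, was listed with means of 10466 and 7312 and a ratio of 0.699.

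Of 18 regulators of lipogenesis, 3 were listed (16.7%), against 7.06% of annotated genes. Srebf1 is among the 3 by selection, so nothing is read from this share. Beside Srebf1 the listed regulators were Ppargc1b and Irs2. Ppargc1b, a coactivator of SREBP-1, had means of 731.0 in control and 526.5 in Alb-D2KO liver (ratio 0.720). Irs2, an adaptor of the insulin receptor, had 1228 and 878.0 (ratio 0.715). The remaining 15, among them Srebf2, Scap, Insig1, Insig2, Mlxipl (which encodes ChREBP) and Nr1h3, were not listed. Of 8 genes of glucose use, including Pklr, 0 were listed.

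Of 9 genes that use malonyl-CoA or control its synthesis, Prkaa1, a catalytic subunit of the kinase that inactivates acetyl-CoA carboxylase, was listed with means of 448.2 in control and 358.0 in Alb-D2KO liver (ratio 0.799). Cpt1a, the enzyme that malonyl-CoA inhibits, was not listed. Of 20 genes of cholesterol synthesis and uptake, which are driven mainly by SREBP-2, Stard4 was listed, with 3861 and 3115 (ratio 0.807). Of 14 T3-responsive genes of liver, 4 were listed (28.6%), against 7.06% of annotated genes. Thrsp and Fasn are among the 4 by selection, and the list was chosen with earlier results known, so nothing is read from this share. Thrsp and Fasn had the higher mean in Alb-D2KO liver. Klf9, with 5482 in control and 3296 in Alb-D2KO (ratio 0.601), and Gadd45g, with 511.8 and 107.8 (ratio 0.211), had the lower. Dio1, Me1 and Thrb of this list were not listed.

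In the authors' deposited table of gene ontology sets, which counts listed genes in both directions together, fatty acid biosynthetic process had 14 of 79 genes listed (17.7%), against 7.06% of all annotated genes. The separate set of its positive regulation had 6 of 23 listed (26.1%). The broader lipid biosynthetic process had 43 of 380 (11.3%). Triglyceride biosynthetic process had 2 of 15 (13.3%) and cholesterol biosynthetic process 2 of 31 (6.45%). These sets were picked after their counts had been seen, and no test was made. Their genes are not named in that table, so any of the selected lipogenic genes among them could not be left out. Nothing is read from these shares.

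Whole liver holds other cells beside hepatocytes, and in bulk tissue fewer cells of a type cannot be told apart from less RNA per cell. Fasn, Thrsp and Srebf1 are also expressed in adipocytes. Of 8 adipocyte markers 1 was listed, Fabp4, with means of 134.4 in control and 99.3 in Alb-D2KO liver. The other 7, Adipoq and Plin1 among them, were not listed and have no value here. Of 5 hepatocyte markers matched by symbol and 8 macrophage markers 0 were listed. Of 6 endothelial markers 2 were listed, Stab2 (3387 in control and 2726 in Alb-D2KO) and Kdr (2291 and 1806), and of 6 stellate cell markers Pdgfrb (378.8 and 290.5). Of 5 cholangiocyte markers Sox9 was listed, with 180.8 and 273.0. The part of cell composition in the values of the lipogenic genes was not tested.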

How the data were processed

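RNA of adult liver from 5 control and 4 Alb-D2KO mice was sequenced in pairs of reads. The authors aligned reads with STAR and quantified them with the E/M counter of Partek Flow against GENCODE release M24 on mm10; their normalization, named absolute value, does not scale for depth. The authors deposited for the listed genes a total estimated count and 1 mean estimated count for each genotype. In 1525 of 1525 genes the total was recovered from both means and the 4 and 5 libraries behind them (relative tolerance 1e-06). They also deposited the read count of each library, the percent of reads fully within exons or introns, and the mean, median and upper quartile of estimated counts over genes. The authors' p-value, false discovery rate, ratio, fold change and enrichment score columns hold their own comparison and were not used.

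Groups came from the genotype label. Replicates were numbered in accession order, which pairs no samples. Ratios were computed from the 2 means. Intervals are exact binomial 95% intervals on summed counts rounded to whole numbers, or normal intervals on the log scale for ratios of ratios, and cover counting error only, since reads without molecular identifiers are not independent molecules. Reads assigned to genes were total reads times the percent within exons. Library measures were compared by exact two-sided permutation tests over 126 splits, for which the smallest possible p is 0.0159. Alternatives were division by 4 depth ratios, other limits on fold and count, each library left out, another gene length and motifs on the strand of the gene alone.

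The members and lists were chosen with earlier results of these data known. Named genes are the 4 members, each listed member of the lists and marker lists, the listed genes of highest count, of which a selection is printed, and the 3 listed genes nearest in log2 ratio. Positions and lengths are those of GENCODE M21, on the same build but an earlier release than M24. Promoters are from RefSeq, and 4 of 4 genes matched. Words of 31 bases were compared with all other transcripts on either strand. Computation used Python 3.11.15, pandas 2.3.3 and scipy 1.17.1, tested on simulated data.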

Additional observations from a re-analysis of the deposited data

Results flagged for a closer look

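A single library was distant from its group in sequencing depth: Alb-D2KO replicate 1, with 50322325 total reads, where the next of that genotype had 41723927. In all, 12 groups were examined (6 library measures in 2 genotypes), this was the 1 that met the criterion, and chance gives 0.6. Fasn, Thrsp, Srebf1 and Acacb were not analysed in this library by itself.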

How the results depend on the processing

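The ratios of the 4 genes kept their direction under each of the 4 divisions by depth, and each moved beyond its counting interval. Fasn, 1.56 as deposited, was 1.67 (assigned reads), 1.73 (total reads), 1.69 (upper quartile) and 1.75 (median gene). In the same order Thrsp, 1.62 as deposited, was 1.74, 1.80, 1.76 and 1.82. Srebf1, 1.42 as deposited, was 1.53, 1.58, 1.54 and 1.60. Acacb, 0.745 as deposited, was 0.799, 0.828, 0.809 and 0.838. The listed lipogenic-pathway genes numbered 4 higher and 7 lower; at 1.5-fold or more, there were 2 higher and 0 lower, and after division by the median gene ratio 5 lower were over 1.2-fold. The log2 difference in assigned reads, -0.10, ran from -0.18 to -0.06 over the 9 comparisons that each left out a library, and the lowest exact permutation p was 0.0714. The value of -0.18 came without Alb-D2KO replicate 1. With the longest transcript as length, Thrsp had 7976 counts per kilobase in control and 12932 in Alb-D2KO, and its place above the other 3 genes was the same. No replicate could be left out of a gene's ratio, since the table holds genotype means. No paired analysis was possible because samples were numbered by accession, the labels name no litter, and genes have genotype means only. The study describes the controls as littermates, and the permutation tests on libraries took no account of litter. Counted on the strand of the gene alone, promoter motif matches numbered 2 in place of 4 for Fasn, 1 in place of 2 for Thrsp, 5 in place of 8 for Srebf1 (over 3 windows) and 2 in place of 3 for Acacb.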
